A study of Mus musculus with 6 samples.

Results

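A set of 10 transcripts that mark fibro-adipogenic progenitors and fibroblasts were examined in the gastrocnemius, a calf muscle, of aged mice. The 10 genes were Pdgfra, Cd34, Ly6a, Dcn, Lum, Dpt, Smoc2, Mfap5, Pi16 and Gsn. They were taken by gene symbol from a list of cell type markers, out of 23238 symbols in the count tables. The list was chosen with earlier results of these data known. All 10 had counts in all 6 libraries, from a lowest of 54 counts (Pi16 in farnesol replicate 2), and all 10 passed the filter on low counts that left 11674 genes for testing. The farnesol group (n = 3) was wild-type C57/BL6J mice aged 26 months that received farnesol, a sesquiterpene alcohol, by mouth at 350 mg/kg for 30 days. The vehicle group (n = 3) was mice of the same genotype and age that received saline with 5% DMSO for the same time. RNA came from whole muscle, so no cells were sorted, and the comparison asked how transcripts of aged muscle differ after farnesol.

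Fibro-adipogenic progenitors are mesenchymal cells that lie between muscle fibres. They carry the receptor PDGFRα, make most of the connective tissue matrix of the muscle, support muscle stem cells during repair, and can turn into fibroblasts or adipocytes. In a whole-muscle library their transcripts stand beside those of the far more abundant fibres, and fewer such cells cannot be told apart from less RNA per cell. The labelled tissue showed in 10 myofibre markers, which summed to 163482 to 177894 CPM in farnesol libraries and 130255 to 193334 CPM in vehicle libraries (CPM, counts scaled to library sizes adjusted by trimmed-mean factors). Farnesol replicate 1 and vehicle replicate 3 stood apart from the other 4 libraries. Their scaling factors were the largest, at 1.11 in farnesol replicate 1 and 1.14 in vehicle replicate 3, against 0.905 to 0.981 in the rest. Their shares of the ribosomal RNA precursor Rn45s were the smallest, at 4.97% of counts in farnesol replicate 1 and 9.92% in vehicle replicate 3, against 12.5% to 15.4% in the rest. Vehicle replicate 3 also had the lowest myofibre sum. Fold changes without 1 of these libraries are given for each marker where they moved by more than 1.5 times.

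Mfap5 and Dpt were the 2 fibroblast markers that separated the groups. Mfap5, which encodes a glycoprotein of extracellular microfibrils, was 1.54-fold as abundant after farnesol (95% interval 1.11 to 2.14, n = 3 and 3). Dpt, which encodes dermatopontin, a small protein of the extracellular matrix that binds decorin, was 1.30-fold as abundant (0.992 to 1.69, n = 3 and 3). In both genes every farnesol library lay above every vehicle library, as held for 4.75% of all 11674 tested genes, while 4.07% had every farnesol library below. The remaining 8 markers overlapped between the groups, among them the defining receptor Pdgfra and the proteoglycan Dcn. No marker passed an adjusted p of 0.05 over all genes in edgeR's quasi-likelihood test, and neither did any other gene (0% of 11674 tested). The counts below therefore describe values and not called changes.

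**Figure D1:**
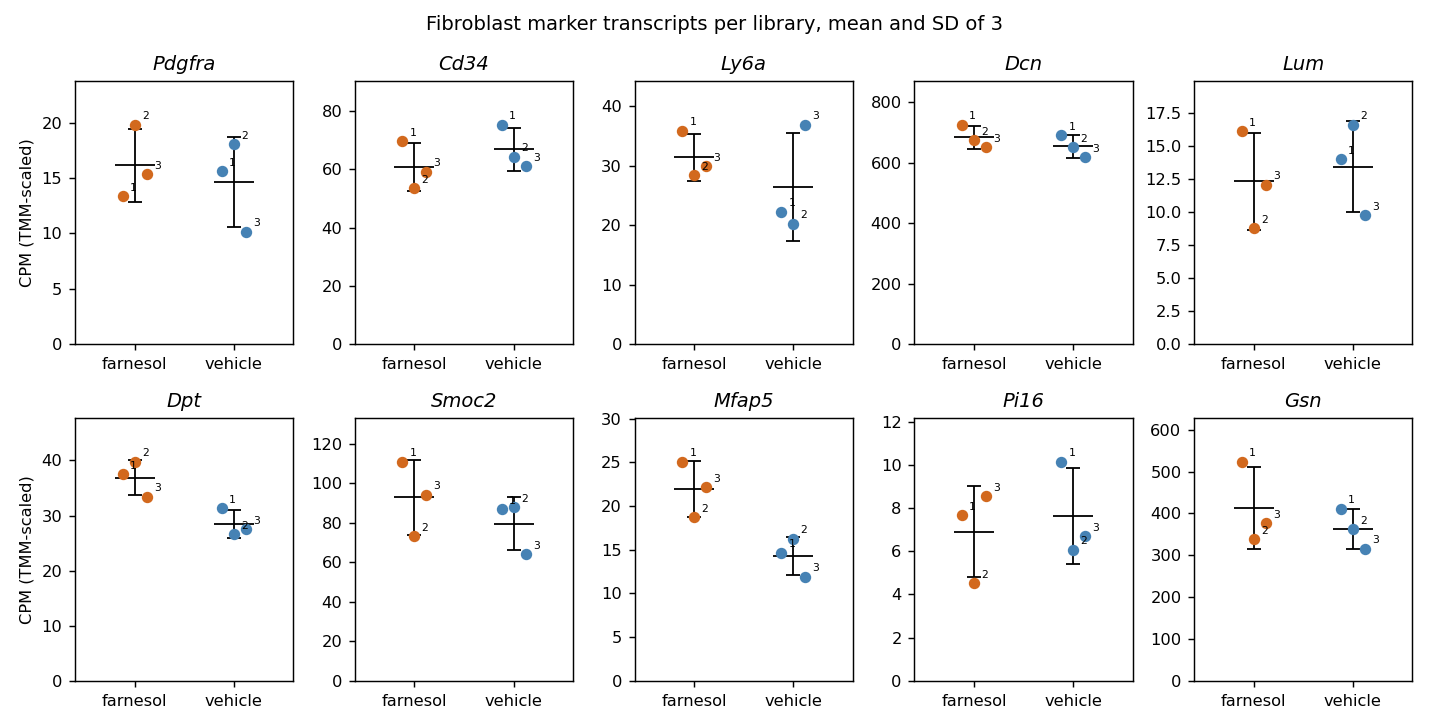
CPM of each of the 10 markers (vertical axes start at 0) in the 3 farnesol libraries (left) and the 3 vehicle libraries (right), with the replicate number beside each point and the mean and SD of 3 as bars. Mfap5 ran from 18.7 to 25.1 CPM in farnesol libraries and from 11.9 to 16.3 CPM in vehicle libraries, and Dpt from 33.4 to 39.8 CPM in farnesol libraries and from 26.6 to 31.3 CPM in vehicle libraries, while the groups overlapped for the other 8 genes.

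The first set of markers sits on the cell surface. Pdgfra (chromosome 5, 75151322 to 75198206, mm10; 23 exons in its longest coding transcript) encodes the receptor for platelet-derived growth factors by which these progenitors are defined. It stood at 13.4, 19.8 and 15.4 CPM in farnesol replicates 1, 2 and 3, against 15.6, 18.1 and 10.2 CPM in vehicle replicates 1, 2 and 3. The highest library was a farnesol one and the lowest a vehicle one, and the others interleaved. The means were 16.2 ± 3.29 CPM after farnesol and 14.6 ± 4.06 CPM after vehicle (SD, n = 3 each), a log2 fold change of 0.15 (SE 0.26; 95% interval of the fold 0.764 to 1.61). The sign of this difference turned without farnesol replicate 2 (−0.02) and without vehicle replicate 3 (−0.06), and its value was 0.27 without farnesol replicate 1 and 0.33 without vehicle replicate 2.

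Cd34 (chromosome 1, 194938821 to 194961292) encodes a sialomucin of progenitor cells and of capillary endothelium. Its values were 69.6, 53.6 and 59.3 CPM in farnesol libraries and 75.3, 64.4 and 61.1 CPM in vehicle libraries, so 2 of the 3 farnesol libraries lay below all vehicle libraries and farnesol replicate 1 did not. The log2 fold change was −0.14 (SE 0.17; 95% interval of the fold 0.715 to 1.16). It was −0.25 without farnesol replicate 1, −0.05 without farnesol replicate 2 and −0.05 without vehicle replicate 1. Ly6a (chromosome 15, 74994877 to 74998031) encodes stem cell antigen 1, which is used to sort these progenitors from mouse muscle, is also carried by endothelium and is inducible by interferon. It measured 35.8, 28.3 and 29.9 CPM in farnesol libraries, against 22.2, 20.2 and 36.8 CPM in vehicle libraries. Vehicle replicate 3 was the highest of all 6, while the other 2 vehicle libraries were the lowest. The log2 fold change of Ly6a was 0.24 (SE 0.22) with all libraries, 0.56 without vehicle replicate 3 (unadjusted edgeR p of 0.0203, adjusted p of 1.0), 0.08 without vehicle replicate 2, 0.14 without farnesol replicate 1 and 0.13 without vehicle replicate 1.

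Vehicle replicate 3 was also the highest library for the sum of 14 macrophage markers, at 263 CPM there and 125 to 191 CPM in the other 5 libraries. This did not hold for each marker. Cd163 stood at 21.2 CPM in farnesol replicate 1 against 16.8 CPM in vehicle replicate 3, and Ctss at 14.8 CPM in vehicle replicate 2 against 10.6 CPM. By fold change 12 of 13 tested macrophage markers were below 0, where 49.1% of all tested genes were above 0. The median log2 fold change of the macrophage markers was −0.20, with 0 past the adjusted threshold. Their sums overlapped, at 191, 146 and 146 CPM in farnesol libraries and 182, 125 and 263 CPM in vehicle libraries. Vehicle replicate 2 was thus the lowest library and vehicle replicate 3 the highest. Adgre1, the macrophage antigen F4/80, was the 1 marker of these 13 without overlap, where 4.07% of all tested genes had every farnesol library below. It averaged 2.87 ± 1.28 CPM after farnesol and 5.93 ± 0.637 CPM after vehicle (SD, n = 3 each; unadjusted edgeR p of 0.0207, adjusted p of 1.0). Csf1r, the receptor for the macrophage growth factor, had a log2 fold change of −0.32 (SE 0.21). The complement genes C1qa and C1qb had −0.14 (SE 0.62) and −0.30 (SE 0.29), and the groups overlapped for Csf1r, C1qa and C1qb. The 16 endothelial markers summed to 315 CPM in vehicle replicate 3 and to 301 CPM in farnesol replicate 1, against 242 to 290.3 CPM in the other 4 libraries, with 4 of 15 tested above 0, and no endothelial or macrophage marker was at 0 in every library. Ly6c1, a related antigen of endothelium, stood at 49.6, 26.8 and 27.9 CPM in farnesol libraries and 29.9, 30.9 and 44.1 CPM in vehicle libraries. Farnesol replicate 1 and vehicle replicate 3 were thus the highest libraries for both Ly6 genes. The other tested genes of the family had log2 fold changes of −0.09 (SE 0.17) for Ly6e and 0.24 (SE 0.62) for Ly6c2. The part of these cells in the Ly6a values was not tested. Ly6 genes are related copies in 1 cluster, and the treatment of reads with several matches is not given in the sources used here, so their counts may be split between copies.

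The small leucine-rich proteoglycans bind collagen fibrils and govern fibril width. Dcn, decorin (chromosome 10, 97479500 to 97518163), which also binds TGF-β, was the deepest measured marker, with a mean of 7269 counts per library. It varied least of the 10 across the 6 libraries, with a coefficient of variation of 5.54%. Its level was 725, 675 and 652 CPM in farnesol libraries and 691, 652 and 618 CPM in vehicle libraries, which overlapped. The means were 684 ± 37.3 CPM after farnesol and 654 ± 36.7 CPM after vehicle (SD, n = 3 each), a log2 fold change of 0.07 (SE 0.15) with a 95% interval of the fold of 0.850 to 1.29. It was 0.02 without farnesol replicate 1, 0.03 without vehicle replicate 3 and 0.11 without vehicle replicate 1.

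Lum, lumican (chromosome 10, 97565501 to 97572703), lies 47.3 kb downstream of Dcn on the same strand. Unlike its neighbour it varied widely, at 16.1, 8.78 and 12.1 CPM in farnesol libraries and 14.0, 16.6 and 9.73 CPM in vehicle libraries. Each group held a high and a low library. The log2 fold change of Lum was −0.12 (SE 0.28), and its sign turned without farnesol replicate 2 (0.07) and without vehicle replicate 2 (0.06), and its value was −0.37 without farnesol replicate 1 and −0.31 without vehicle replicate 3.

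A further 4 markers encode secreted proteins of the matrix. Mfap5 (chromosome 6, 122513584 to 122529290; 10 exons) encodes microfibril-associated glycoprotein 2, which binds fibrillin. It measured 25.1, 18.7 and 22.2 CPM in farnesol replicates 1, 2 and 3 and 14.6, 16.3 and 11.9 CPM in vehicle replicates 1, 2 and 3. The lowest farnesol library stood above the highest vehicle library. Means were 21.99 ± 3.19 CPM after farnesol and 14.3 ± 2.19 CPM after vehicle (SD, n = 3 each), from a mean of 196.5 counts per library. The log2 fold change of 0.62 (SE 0.23) had an unadjusted edgeR p of 0.0128, rank 59 of 11674, and an adjusted p of 1.0. With groups that do not overlap, dropping 1 library could not be expected to turn the sign. Refits that each dropped 1 library gave 0.51 to 0.73. The unadjusted edgeR p was then above 0.05 without farnesol replicate 1 (0.0598) and without vehicle replicate 3 (0.0559).

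Dpt (chromosome 1, 164796663 to 164824274; 4 exons) stood at 37.5, 39.8 and 33.4 CPM in farnesol libraries and 31.3, 26.6 and 27.5 CPM in vehicle libraries. Here farnesol replicate 2 was the highest library, whereas farnesol replicate 1 was highest for Mfap5. The means were 36.9 ± 3.24 CPM after farnesol and 28.5 ± 2.51 CPM after vehicle (SD, n = 3 each). The log2 fold change of 0.37 (SE 0.19) had an unadjusted edgeR p of 0.0568 and an adjusted p of 1.0, and the refits that each dropped 1 library gave 0.32 to 0.45.

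The sequence around the annotated start of Dpt is shown because it is the 1 of the 2 separated genes that has an entry in the promoter table from RefSeq (GRCm38.p6). The window runs from 250 bases before to 50 bases after the start (chr1:164796413-164796712, plus strand). Capitals mark matches, on either strand, to the motifs searched: the TATA box as TATAAA, the AP-1 element as TGANTCA, the SMAD element as CAGAC, the NF-Y box as CCAAT and the GC box as GGGCGG.
Dpt: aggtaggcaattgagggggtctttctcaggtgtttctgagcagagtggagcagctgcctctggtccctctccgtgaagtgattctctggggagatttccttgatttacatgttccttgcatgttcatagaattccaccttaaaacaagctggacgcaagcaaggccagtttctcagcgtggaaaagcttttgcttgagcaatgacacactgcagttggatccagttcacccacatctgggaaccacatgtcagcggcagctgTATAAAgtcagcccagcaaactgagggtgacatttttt
The single match is a TATAAA that begins 13 bases into the transcript as annotated, a motif held by 13.6% of the 32851 windows in the table. A match is a description of letters and was not tied to the counts.

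Smoc2 (chromosome 17, 14279490 to 14404790) encodes a calcium-binding matricellular protein of the SPARC family. It measured 111, 73.3 and 94.3 CPM in farnesol libraries and 86.9, 87.9 and 64.1 CPM in vehicle libraries. The top 2 values were farnesol libraries, while farnesol replicate 2 lay below 2 vehicle libraries. Its log2 fold change was 0.22 (SE 0.18), 0.07 without farnesol replicate 1, 0.09 without vehicle replicate 3 and 0.37 without farnesol replicate 2. Pi16 (chromosome 17, 29318796 to 29328903) encodes a peptidase inhibitor that marks a fibroblast population found around vessels and in fascia across tissues. It was the shallowest of the 10, with a mean of 78.2 counts per library, and measured 7.66, 4.51 and 8.55 CPM in farnesol libraries and 10.1, 6.06 and 6.69 CPM in vehicle libraries. The log2 fold change of Pi16 was −0.15 (SE 0.34), an interval of the fold of 0.552 to 1.48, and its sign turned without farnesol replicate 2 (0.09) and without vehicle replicate 1 (0.11). It was −0.23 without farnesol replicate 1, −0.24 without vehicle replicate 3, −0.33 without farnesol replicate 3 and −0.29 without vehicle replicate 2.

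Gsn (chromosome 2, 35256359 to 35307902) encodes gelsolin, which severs and caps actin filaments, is abundant in fibroblasts and is also made by muscle fibres. It stood at 524, 339 and 376 CPM in farnesol libraries and 411, 362 and 315 CPM in vehicle libraries. Farnesol replicate 1 lay far above the rest and the other 5 interleaved. The means were 413 ± 97.7 CPM after farnesol and 363 ± 48.2 CPM after vehicle (SD, n = 3 each), a log2 fold change of 0.19 (SE 0.17), which was −0.02 without farnesol replicate 1, 0.09 without vehicle replicate 3, 0.31 without farnesol replicate 2 and 0.29 without vehicle replicate 1.

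Gelsolin is known in a secreted and a cytoplasmic form made from different start sites, and counts of tags near a shared 3′ end cannot tell them apart. The 3 starts of Gsn in the RefSeq table (GRCm38.p6, plus strand; chr2:35256109-35256408, chr2:35266494-35266793 and chr2:35282130-35282429) are shown for that reason, with capitals as for Dpt.
Gsn start 1: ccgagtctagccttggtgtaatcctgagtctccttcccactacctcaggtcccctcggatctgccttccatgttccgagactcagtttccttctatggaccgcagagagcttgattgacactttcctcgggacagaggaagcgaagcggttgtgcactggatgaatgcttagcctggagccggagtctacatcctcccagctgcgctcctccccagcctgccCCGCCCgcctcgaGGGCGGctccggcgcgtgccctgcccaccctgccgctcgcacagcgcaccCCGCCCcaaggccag
Gsn start 2: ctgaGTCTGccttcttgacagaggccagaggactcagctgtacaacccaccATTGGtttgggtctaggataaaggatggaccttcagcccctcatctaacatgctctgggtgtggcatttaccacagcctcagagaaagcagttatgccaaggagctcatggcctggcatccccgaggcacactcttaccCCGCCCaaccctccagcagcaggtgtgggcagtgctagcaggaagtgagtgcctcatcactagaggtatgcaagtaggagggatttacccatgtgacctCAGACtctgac
Gsn start 3: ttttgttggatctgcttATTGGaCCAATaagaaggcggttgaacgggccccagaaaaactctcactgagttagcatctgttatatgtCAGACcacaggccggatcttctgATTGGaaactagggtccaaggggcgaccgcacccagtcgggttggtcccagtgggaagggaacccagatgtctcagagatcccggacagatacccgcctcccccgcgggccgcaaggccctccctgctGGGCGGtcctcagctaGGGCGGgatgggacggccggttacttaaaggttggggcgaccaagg
The window of start 1 has a GC content of 63.7% and matches only the GC box, GGGCGG or its reverse complement, which 35.7% of all windows hold. Starts 2 and 3 hold matches to the GC box, the NF-Y box (37.4% of all windows) and the SMAD element (49.6%). TGANTCA, held by 7.81% of all windows, had no match in the windows shown. Which start gave the counted RNA was not measured.

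**Figure D2:**
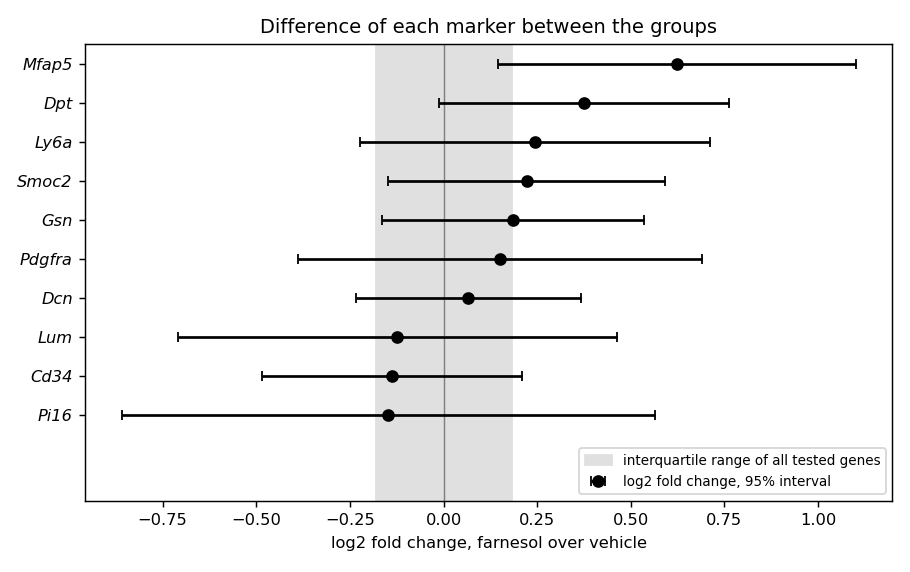
Log2 fold change of farnesol over vehicle for each marker with its 95% interval (horizontal axis), over the band that holds the interquartile range of all 11674 tested genes, −0.18 to 0.18. The interval of Mfap5 alone lies wholly above 0, and Mfap5, Dpt, Ly6a, Smoc2 and Gsn have values above the band.

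Across the 10 markers, 7 had a log2 fold change above 0 and 3 below, where 49.1% of all tested genes were above 0. Their median was 0.17, against −0.01 over all tested genes, and was 0.05 without farnesol replicate 1. Groups did not overlap, with farnesol higher, in 2 of the 10 markers, against the 4.75% of tested genes. With farnesol lower this held for 0 markers, against 4.07% of tested genes. An unadjusted edgeR p under 0.05 with farnesol higher was reached by 1 marker (Mfap5) and by 1.75% of tested genes. The 7 and 3 split was the same with DESeq2's size factors and without Rn45s. The 10 markers were chosen with earlier results of these data known, so the shares set beside them are no test of the list.

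The same 2 libraries held many of the extreme values. Farnesol replicate 1 was the highest library for 4 markers (Dcn, Smoc2, Mfap5 and Gsn) and lay above the gene's own mean log2 CPM for 9 of 10. Vehicle replicate 3 was the lowest for 5 (Pdgfra, Dcn, Smoc2, Mfap5 and Gsn) and lay above the mean for 1, Ly6a. Dcn, Smoc2, Mfap5 and Gsn thus shared both their highest and their lowest library. Dpt did not follow this order, nor did Pi16, whose highest library was vehicle replicate 1. The part of library composition in these values was not tested.

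**Figure D3:**
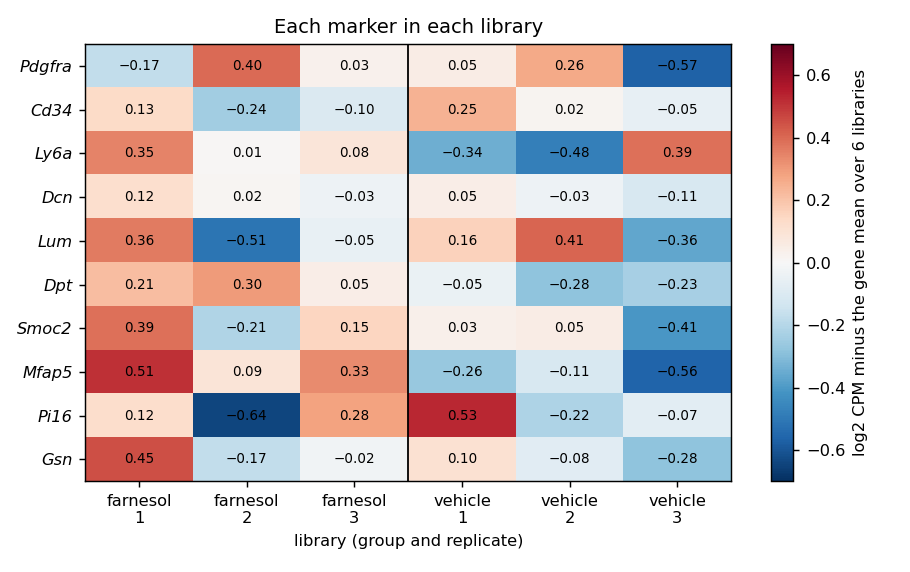
Log2 CPM of each marker minus its mean over the 6 libraries, with libraries in columns (farnesol left of the line, vehicle right) and genes in rows. The column of farnesol replicate 1 is above the gene mean for 9 of 10 markers and that of vehicle replicate 3 for 1 of 10.

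**Figure D4:**
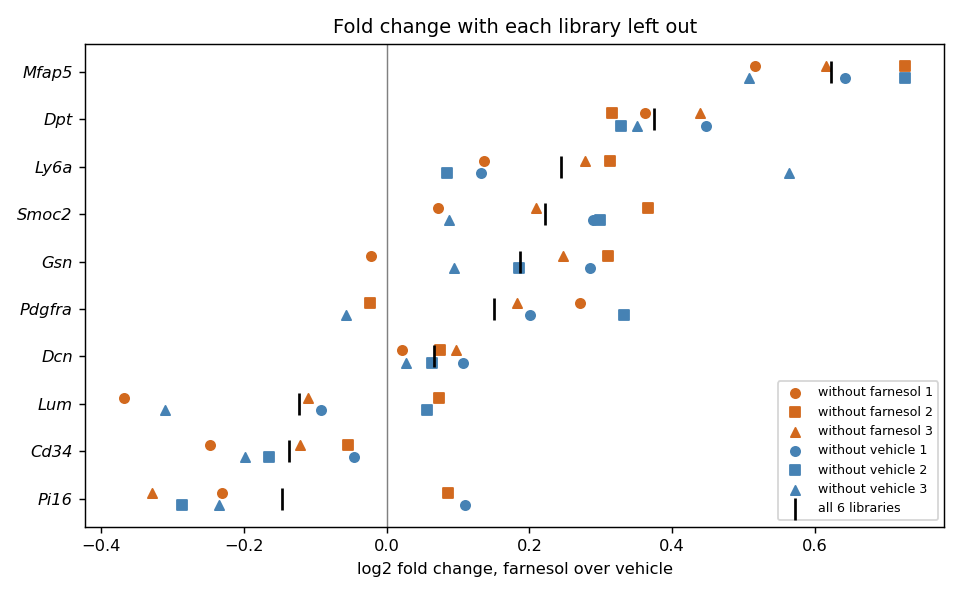
Log2 fold change of farnesol over vehicle (horizontal axis) refitted without each library in turn (coloured symbols), with the value from all 6 libraries as a black tick. Mfap5 stays between 0.51 and 0.73 and Dpt between 0.32 and 0.45, whereas Pdgfra, Lum, Pi16 and Gsn have symbols on both sides of 0. The groups of Mfap5 and Dpt do not overlap, so their sign could not be expected to turn.

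Summed over the 10 markers, the level was 1565, 1261 and 1303 CPM in farnesol libraries and 1373, 1270.4 and 1161 CPM in vehicle libraries, a sum that Dcn and Gsn dominate. Without these 2 genes it was 316, 247 and 275 CPM in farnesol libraries and 270.1, 256 and 228 CPM in vehicle libraries. Both sums overlapped between the groups. Divided by the length of the longest coding transcript, mean levels over 6 libraries were 380.5 CPM per kb for Dcn, 146 for Gsn, 30.5 for Smoc2, 30.2 for Ly6a, 25.01 for Cd34, 19.0 for Dpt, 12.04 for Mfap5, 5.26 for Lum, 2.25 for Pdgfra and 1.82 CPM per kb for Pi16. Neighbours in this order such as Smoc2 and Ly6a, or Pdgfra and Pi16, differed by less than their spread between libraries. The library kit reads tags near the 3′ end, so the division by length does not suit these counts and its order is not one of abundance. Undivided means were 63.9 CPM for Cd34 and 28.9 CPM for Ly6a, and 15.4 CPM for Pdgfra and 12.9 CPM for Lum. Both orders are reversed per kb.

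Other genes of the same cells were split between the directions. Of 42 further fibroblast genes, 39 were tested, with 21 above 0 and 18 below, a median log2 fold change of 0.02, and 0 past the adjusted threshold. In 0 of the 39 did all farnesol libraries lie above all vehicle libraries, and in 1 all lay below, against 4.75% and 4.07% of all tested genes. That gene was Hic1, a transcription factor of quiescent mesenchymal progenitors, at 2.34 ± 0.196 CPM after farnesol and 3.72 ± 0.928 CPM after vehicle (SD, n = 3 each), and 1 of 39 is no more than the share over all genes. S100a4, a calcium-binding protein of fibroblasts and macrophages, averaged 13.5 ± 2.11 CPM after farnesol and 19.4 ± 5.58 CPM after vehicle (unadjusted edgeR p of 0.0496, adjusted p of 1.0), beside the macrophage values above. Its groups overlapped, and vehicle replicate 3 was the highest library at 25.6 CPM. The source of S100a4 among fibroblasts and macrophages was not tested. Lox, the enzyme that cross-links collagen and elastin, averaged 16.5 ± 2.61 CPM after farnesol and 11.9 ± 4.41 CPM after vehicle, with overlapping groups. Tnxb, a tenascin of connective tissue, averaged 2.05 ± 0.924 CPM after farnesol and 3.31 ± 1.26 CPM after vehicle, also overlapping. Tcf21, a mesenchymal transcription factor, was listed at 0 in all 6 libraries.

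The partners of Mfap5 in microfibrils and elastic fibres gave 10 tested genes with 7 above 0, Mfap5 included, and a median log2 fold change of 0.19. Ltbp4, which tethers latent TGF-β to elastic fibres, averaged 39.4 ± 3.16 CPM after farnesol and 28.2 ± 6.72 CPM after vehicle (log2 fold change 0.48, SE 0.20; unadjusted edgeR p of 0.0243, adjusted p of 1.0). The lowest farnesol library of Ltbp4, 35.8 CPM, lay just under the highest vehicle library, 35.9 CPM. Ltbp1, a related binding protein, had non-overlapping groups at 12.6 ± 0.842 CPM after farnesol and 9.45 ± 1.64 CPM after vehicle. With Mfap5 it made 2 of the 10 with every farnesol library above, as held for 4.75% of all tested genes. Fbn1, fibrillin 1, to which Mfap5 binds, had a log2 fold change of 0.13 (SE 0.22), and Eln, elastin, of −0.02 (SE 0.27). Loxl1, a lysyl oxidase of elastic fibres, had −0.20 (SE 0.29).

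The family of Dcn and Lum had 11 tested genes, 5 above 0 and 6 below, with a median of −0.02. Groups did not overlap in 0 of the 11, against 4.75% (farnesol higher) and 4.07% (farnesol lower) of all tested genes. In this family Ogn (osteoglycin) had a log2 fold change of 0.22 (SE 0.23) and Prelp of 0.17 (SE 0.20). Podn (podocan) had 0.16 (SE 0.29) and Kera (keratocan) −0.40 (SE 0.58). The collagen genes of fibroblasts had 3 of 9 above 0 and a median log2 fold change of −0.12. Col5a2 was the 1 collagen gene whose farnesol libraries all lay below the vehicle libraries, as held for 4.07% of all tested genes. It averaged 5.91 ± 0.659 CPM after farnesol and 8.31 ± 1.59 CPM after vehicle. Col1a1 had 0.23 (SE 0.25), Col14a1 −0.21 (SE 0.29) and Col1a2 −0.16 (SE 0.30). Among ligands and receptors of the Pdgfra system, Pdgfb had a log2 fold change of 0.28 (SE 0.33), Pdgfa of 0.03 (SE 0.21) and Pdgfrb, the receptor of pericytes, of 0.08 (SE 0.34), while Pdgfd was listed at 0. In the SPARC family of Smoc2, Spock3 had 0.64 (SE 0.49), Smoc1 −0.59 (SE 0.84), Sparcl1 −0.09 (SE 0.14) and Sparc 0.03 (SE 0.15), all with overlapping groups. Svil, supervillin of the gelsolin family, had −0.13 (SE 0.15), and its relatives Avil 0.21 (SE 0.54) and Capg −0.09 (SE 0.35).

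Genes of TGF-β signalling, which drives matrix production in fibroblasts, had 3 of 10 tested above 0 and a median of −0.06. Smad2, a signal transducer of the pathway, averaged 8.62 ± 1.41 CPM after farnesol and 12.8 ± 1.85 CPM after vehicle (log2 fold change −0.57, SE 0.27; unadjusted edgeR p of 0.0493, adjusted p of 1.0). It was the 1 gene of these 10 whose groups did not overlap, where 4.07% of all tested genes had every farnesol library below. Smad4 stood at −0.25 (SE 0.18), Tgfbr2 at −0.21 (SE 0.27) and Tgfbr3 at 0.09 (SE 0.20). Tgfb1 was listed at 0 in all 6 libraries, which is not taken as absence of its RNA, since the annotation used for counting is not given.

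Adipocyte markers each had a higher mean after farnesol, although none passed the adjusted threshold. By sum, vehicle replicate 3 (446 CPM) still exceeded farnesol replicates 2 (355 CPM) and 3 (380 CPM). All 9 adipocyte markers had a log2 fold change above 0 with a median of 0.46. In 4 of them (Cidec, Lep, Retn and Plin1) every farnesol library lay above every vehicle library, against 4.75% of all tested genes. The adipocyte list was chosen with earlier results of these data known, so these shares are no test of it. The most abundant, Fabp4, had a log2 fold change of 0.24 (SE 0.36), Cfd of 0.33 (SE 0.25) and Adipoq of 0.46 (SE 0.25). The summed level of the 9 markers was 355 to 532 CPM in farnesol libraries and 245.5 to 446 CPM in vehicle libraries, which overlapped, and no adipocyte marker was at 0 in every library. The tendon markers belong to another connective tissue type in which matrix genes are active. They summed to 168 to 209 CPM in farnesol libraries and 148 to 217 CPM in vehicle libraries, with 3 of 7 above 0. None separated the groups, against 4.75% (farnesol higher) and 4.07% (farnesol lower) of all tested genes. The 9 pericyte and smooth muscle markers summed to 221 to 309 CPM in farnesol libraries and 268 to 330.4 CPM in vehicle libraries, with 4 of 9 above 0. Of 10 myofibre markers 8 were above 0 (median log2 fold change 0.10), as were 5 of 7 Schwann cell markers (0.08). In 1 of these Schwann cell markers every farnesol library lay above every vehicle library, against 4.75% of all tested genes. Of 7 tested satellite cell markers, 1 was above 0 (median −0.15). Whether RNA of these cell types contributes to the Mfap5 and Dpt values was not tested.

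**Figure D5:**
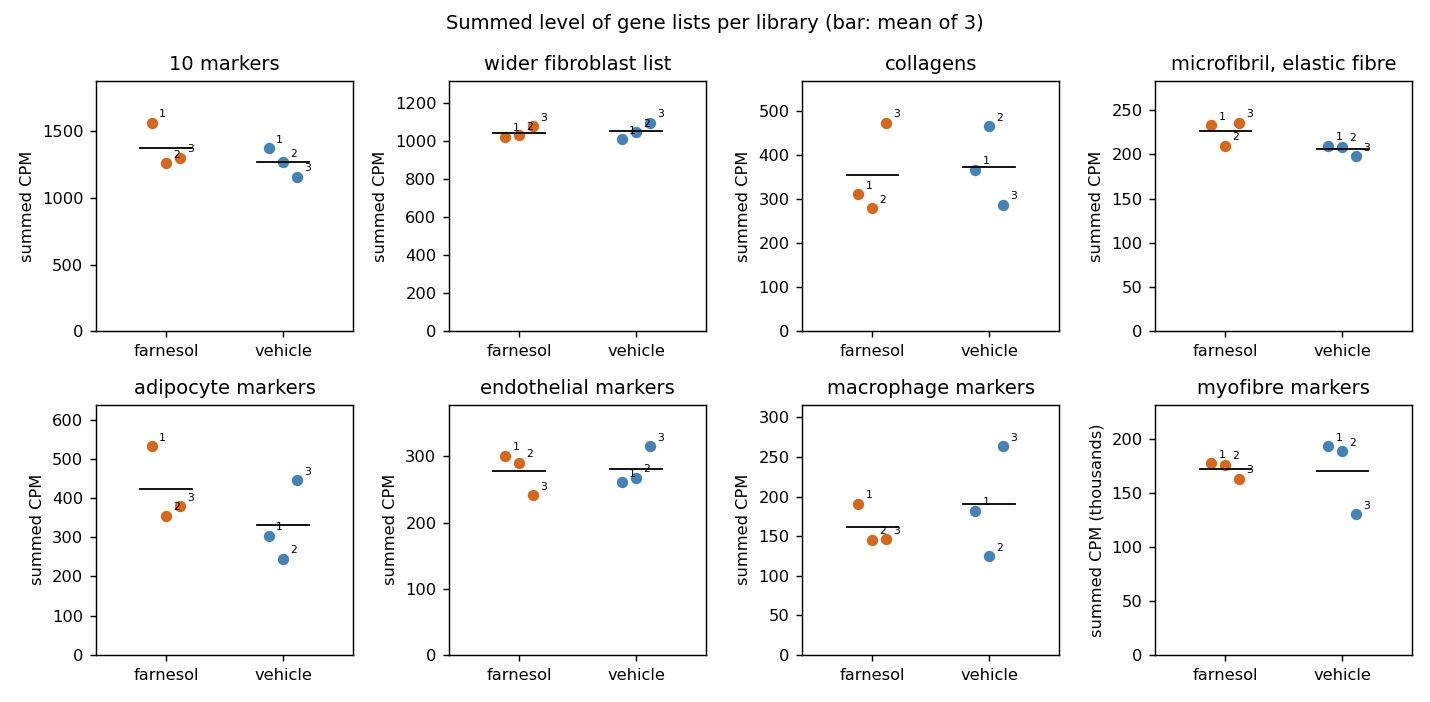
Summed CPM per library of the 10 markers, 3 related gene lists and markers of 4 other cell types (vertical axes start at 0, myofibres on a larger scale), farnesol left and vehicle right, with a bar at the mean of 3 and replicate numbers beside the points. The wider fibroblast list runs from 1022 to 1075 CPM in farnesol libraries and from 1007 to 1094 CPM in vehicle libraries, and the adipocyte sums overlap between the groups.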

How the data were processed

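Whole gastrocnemius RNA (500 ng) went into a Lexogen QuantSeq kit, which reads tags at the 3′ end, per the labels' protocols. The deposited tables hold raw counts for each gene symbol, with library totals of 9895700 to 12707751. The submitters' processing notes name Bowtie2, bedtools and mm10. The annotation, strand handling and multi-match rule are not given in the sources used. Counts of a symbol on several lines were summed (35 symbols). Overlapping antisense genes of the members, present for Cd34 and Smoc2, held at most 13 counts.

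All genes were fitted in edgeR 4.0.16 (R 4.3.3): filterByExpr, TMM scaling, robust quasi-likelihood test of farnesol against vehicle, Benjamini-Hochberg adjustment, threshold 0.05. The biological coefficient of variation was 25.7%. The SE was derived from the fold change and its F statistic, and 95% intervals use the t distribution. The fit was tested on simulated counts with 200 changed genes, at a common dispersion and with changes larger than that of any marker. That test does not show whether differences of the markers' size can be found. The smallest edgeR adjusted p was 0.5615, and 351 genes had an unadjusted p under 0.05. Alternatives were DESeq2 1.42.0, limma 3.58.1 (voom), DESeq2 size factors, no filter, a replicate block, no Rn45s, plain library totals and each library left out. A count of 0 allows up to 3 counts, or 0.236 to 0.303 CPM, which covers counting error only. A gene listed at 0 is not taken as absent, since the annotation used for counting is unknown. Libraries of a group differed by more than sampling noise. The labels call them biological replicates without naming mice, so each p-value reflects library spread, which may be technical. The members and lists were chosen with earlier results of these data known. From each related gene list the 4 tested genes with the smallest unadjusted p are named, members among them, and from marker lists of other cell types up to 3 of highest mean CPM. Fbn1, Eln, Sparc, Adgre1, Cd163, Ctss, the 4 adipocyte genes without overlap and genes listed at 0 fall outside that rule. They were named after their values were seen. Replicate numbers are those of the sample titles. The count columns are numbered 2, 3 and 4 for farnesol replicates 1, 2 and 3 and 1, 3 and 4 for vehicle replicates 1, 2 and 3. Positions are RefSeq GRCm38.p6, the build of mm10. Transcript lengths and exons are GENCODE vM21. Promoter windows were found for 5 of the 10 members (Pdgfra, Cd34, Dpt, Pi16 and Gsn).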

Additional observations from a re-analysis of the deposited data

How the results depend on the processing

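The number of genes past an adjusted p of 0.05 was 0 in edgeR, in DESeq2 (smallest adjusted p 0.0887, 416 genes under an unadjusted 0.05) and in limma-voom (0.565, 361 genes). It was 13 with edgeR without the filter on low counts and 0 to 3 with 1 library left out (3 without vehicle replicate 2). No marker was among these genes. All 72 fold changes and medians under the alternatives that keep every library had the same direction and side of the threshold, and all 20 group means on plain library totals moved by less than 1 SD. Leaving out 1 library turned 7 of 60 fold changes. The ranges of the log2 fold change were −0.057 to 0.33 for Pdgfra, −0.37 to 0.073 for Lum, −0.33 to 0.11 for Pi16 and −0.022 to 0.31 for Gsn, and the median of the wider fibroblast list ran from −0.036 to 0.033. The median of the 10 markers ran from 0.05 to 0.20. A replicate block called 0 genes (428 under an unadjusted edgeR p of 0.05) and gave Mfap5 a log2 fold change of 0.62. Deviations of same-numbered libraries correlated across genes at 0.04, 0.06 and −0.02, so the title numbers are not taken to pair samples, and the column numbers match within pairs 2 and 3 but not within pair 1. Depth limits Pi16, Lum and Pdgfra most, at 78.2, 138 and 167 counts per library.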

Other observations

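Ratios of raw counts within a library do not depend on how libraries are scaled, and a few were computed for Mfap5 and Dpt after their values were seen. Mfap5 held 3.46%, 2.77% and 3.40% as many counts as Dcn in farnesol replicates 1, 2 and 3, against 2.12%, 2.49% and 1.93% in vehicle replicates 1, 2 and 3. Dpt held 5.17%, 5.89% and 5.12% as many counts as Dcn in farnesol libraries and 4.53%, 4.08% and 4.45% in vehicle libraries. Both ratios were without overlap, as was that of Mfap5 to Lum, at 156%, 213% and 184% in farnesol libraries and 105%, 98.2% and 123% in vehicle libraries. The ratio of Mfap5 to Pdgfra overlapped, at 187.5%, 94.5% and 144% in farnesol libraries and 93.9%, 89.9% and 117.5% in vehicle libraries. That of Mfap5 to Pi16 also overlapped, at 328%, 415% and 259% in farnesol libraries and 144%, 268% and 178% in vehicle libraries. A ratio shows unequal levels and not which gene of the pair differs. They rest on the same counts as the fold changes and are no independent measurement of them.

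Cd34 and Ly6a, the 2 surface antigens shared with endothelium, stood in different proportions. Cd34 held 194%, 189% and 198% as many counts as Ly6a in farnesol libraries, against 339%, 318.5% and 166% in vehicle libraries. The farnesol libraries lay close together, and the vehicle libraries fell on both sides of them. These ratios were chosen after their values were seen and were not tested.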
